A study of Mus musculus with 9 samples.

Results

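In oviductal muscle cells of early pregnancy, 2114 genomic regions carried H3K27ac away from every annotated transcript start while no H3K4me1 peak overlapped them. They were taken from the 64843 peaks of the pooled H3K27ac list, of which they made up 3.26%. A region was kept when it lay on chromosomes 1 to 19 or X, overlapped a peak in at least 2 of the 3 H3K27ac replicate lists, overlapped no window of 1 kb either side of a GENCODE transcript start, and overlapped no peak of the pooled H3K4me1 list or of any of its 3 replicate lists. Of 47742 H3K27ac regions outside the start windows, 30149 were found in at least 2 replicates, 4412 of these had no pooled H3K4me1 peak, and 2114 had none in the replicate lists either. The share that met the rule was 7.01% of the 30149 distal regions, a number that the rule itself fixed. As the group for comparison served 23110 double-marked distal regions, which met the same H3K27ac and distance conditions and overlapped both the pooled H3K4me1 list and peaks of at least 2 H3K4me1 replicate lists. The other 4925 distal regions had H3K4me1 in some lists and belonged to neither group.

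The cells were primary oviductal muscle cells of WT mice aged 8 to 12 weeks, mated and taken on day 2 of pregnancy, and no other genotype, treatment or time was part of these samples. They were released from minced oviduct by enzymes, plated for some hours in medium with serum, washed and fixed, and 50000 cells entered each library. ChIC-Seq, in which an antibody brings MNase fused to protein A to its mark, was done with 3 replicates for H3K27ac, 3 for H3K4me1 and 3 for IgG, a control antibody without a chromatin target. The labels do not say whether the replicates came from separate animals, so the spread between them may be technical.

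H3K27ac is the acetylation of lysine 27 of histone H3 and is found at active promoters and active enhancers. H3K4me1, a single methyl group on lysine 4 of the same histone, is spread over enhancers and over the flanks of promoters, and is typically low at the centre of an active start site, where the trimethylated form takes its place. Distal H3K27ac is therefore usually accompanied by H3K4me1. The genes of transfer RNAs are read by RNA polymerase III from promoter elements inside the gene, and active ones are known to lie in open, acetylated chromatin. The GENCODE annotation used for the start windows held 0 transcripts of tRNA type on these chromosomes, so a tRNA gene counted as distal unless another start was near.

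Among the 12 regions of highest fold enrichment present in all 3 replicates, 3 lay over tRNA genes, the strongest region among them. The tRNA gene of each is printed below in capitals with 60 bp of flank on either side, in the direction of the gene, because tRNA genes were the annotated feature that recurred among these regions. The coordinates and sequences are from RefSeq on GRCm38, and where a region held several tRNA genes, 1 is shown.
n-TKctt16, lysine tRNA, chr3:96499452-96499644, minus strand: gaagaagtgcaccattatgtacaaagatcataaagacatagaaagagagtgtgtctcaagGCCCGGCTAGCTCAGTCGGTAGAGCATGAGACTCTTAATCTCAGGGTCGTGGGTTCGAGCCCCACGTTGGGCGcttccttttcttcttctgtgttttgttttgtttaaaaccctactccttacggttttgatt
n-TMcat8, methionine tRNA, chr13:21974972-21975163, plus strand: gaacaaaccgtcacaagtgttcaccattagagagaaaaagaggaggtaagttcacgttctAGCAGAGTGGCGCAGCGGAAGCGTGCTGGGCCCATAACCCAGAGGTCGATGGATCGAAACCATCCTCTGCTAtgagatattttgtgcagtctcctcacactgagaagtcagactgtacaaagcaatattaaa
n-TLtag1, leucine tRNA, chr7:120835419-120835620, minus strand: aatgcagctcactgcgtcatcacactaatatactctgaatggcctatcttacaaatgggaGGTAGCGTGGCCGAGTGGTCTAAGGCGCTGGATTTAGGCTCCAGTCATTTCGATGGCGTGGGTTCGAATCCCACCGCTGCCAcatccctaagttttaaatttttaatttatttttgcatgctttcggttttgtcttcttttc

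The strongest regions without a tRNA gene among the first 5 are shown by their central 300 bp, plus strand of GRCm38, to let a reader see what such a region looks like. Capitals mark matches to the AP-1 site TGACTCA or to the E-box CAGCTG on either strand, and only the region in Firre held any, with 2 E-boxes.
chr2:32137249-32137548, intergenic: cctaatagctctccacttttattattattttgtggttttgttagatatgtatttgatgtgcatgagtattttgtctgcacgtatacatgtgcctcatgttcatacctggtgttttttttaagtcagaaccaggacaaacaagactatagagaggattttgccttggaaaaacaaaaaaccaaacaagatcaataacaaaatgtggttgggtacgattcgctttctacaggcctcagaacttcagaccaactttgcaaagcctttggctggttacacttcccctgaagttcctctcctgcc
chrX:50600020-50600319, intron of Firre: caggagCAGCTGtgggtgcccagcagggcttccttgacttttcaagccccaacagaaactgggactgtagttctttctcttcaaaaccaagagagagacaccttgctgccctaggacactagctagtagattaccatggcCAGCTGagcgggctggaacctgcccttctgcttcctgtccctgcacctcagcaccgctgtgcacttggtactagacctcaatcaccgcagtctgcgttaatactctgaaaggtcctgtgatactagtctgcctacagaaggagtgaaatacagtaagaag
chr19:58665677-58665976, intron of Pnlip: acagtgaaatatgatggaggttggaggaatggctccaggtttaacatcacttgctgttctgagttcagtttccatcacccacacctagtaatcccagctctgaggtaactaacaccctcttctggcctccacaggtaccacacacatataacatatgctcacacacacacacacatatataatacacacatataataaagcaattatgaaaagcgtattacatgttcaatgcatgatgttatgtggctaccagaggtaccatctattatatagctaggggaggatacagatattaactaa

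The H3K27ac calls rested on 40551842 to 42040809 fragments per replicate and the H3K4me1 calls on 41891318 to 78891920, against 3110985 to 3713369 IgG fragments. The calls rested on p-values alone. The q-value column, which per the headers was not to be computed, was 0 on the −log10 scale for 96.8% to 97.8% of the peaks in the H3K27ac replicate lists and for 99.97% in those of H3K4me1. In the pooled lists it was 0 for 69.1% of the H3K27ac and 58.7% of the H3K4me1 peaks. A value above 0 was held by 4.07% of members and 33.2% of double-marked regions. H3K27ac replicate 1 was called against IgG replicate 1, and no H3K4me1 list was called against that library alone. The label of the cells was checked against promoters with H3K27ac in at least 2 replicates, of which there were 8 among 14 smooth muscle markers, 10 among 10 stromal, 0 among 8 epithelial, 3 among 7 endothelial and 2 among 8 blood cell markers. The same share over all coding genes was not determined, so these counts only describe the lists. Acta2, Des and Smtn had H3K27ac in all 3 lists, whereas the promoter of Myh11, the smooth muscle myosin heavy chain, had it in 0 lists, and those of Cnn1, Myocd, Lmod1, Mylk and Actg2 in 1. Ptprc and Spi1 were the blood cell markers with the mark. The part of other cell types in the regions described here was not tested.

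The members were selected on the presence of H3K27ac calls and the absence of H3K4me1 calls, so the values of these calls are given as a description. Regions without H3K4me1 were narrow and low. Their median width in the pooled list was 446 bp, with quartiles of 267 and 689 bp, against 1147.5 bp for double-marked regions. At most 500 bp were covered by 1187 of the members, or 56.1%, compared with 17.9% of the double-marked regions. Together the members covered 1.17 Mb and the double-marked regions 37.4 Mb. Their median pileup, the mean coverage by fragments after scaling to the IgG depth, was 3.29, and the lowest pileup in the pooled list was 3.07. For double-marked regions the median was 3.84. The median fold enrichment, the authors' ratio of pileup to local background, was 1.75 in members and 1.85 in double-marked regions, and the highest among members was 2.81 compared with 31.8.

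**Figure D1:**
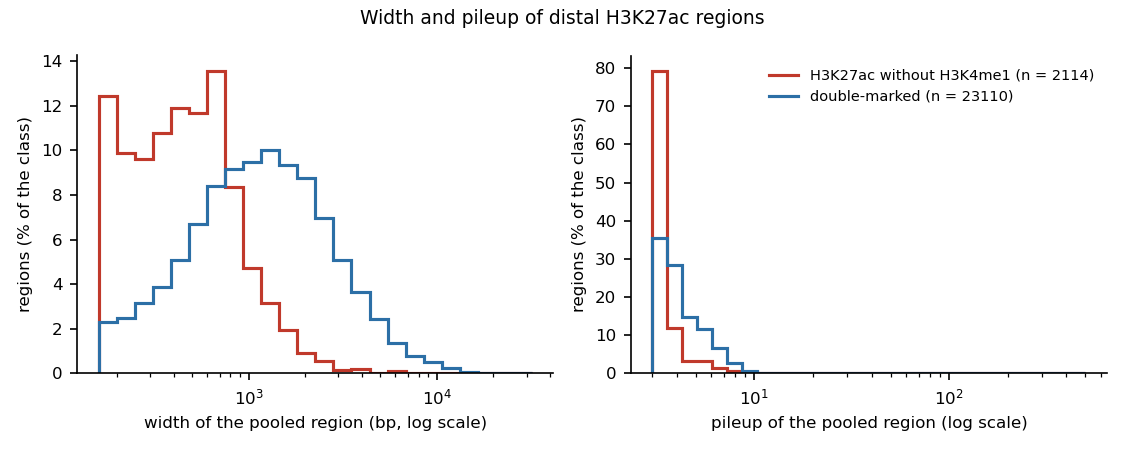
Share of regions in each class (%, vertical axes) by width in bp (left, log scale) and by pileup (right, log scale), for 2114 distal H3K27ac regions without H3K4me1 (red) and 23110 double-marked regions (blue). The red line peaks below 1000 bp and at the lowest pileups, with medians of 446 bp and 3.29 against 1147.5 bp and 3.84 for the blue line.

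The share of distal regions that had no H3K4me1 fell with the width and the height of the region. Divided into 4 parts of about equal number in order of rising width, the 30149 distal regions held 16.0%, 8.80%, 2.65% and 0.570% members. Divided in order of rising pileup, they held 16.8%, 7.15%, 2.43% and 1.94%. An overlap of 1 bp with any H3K4me1 peak excluded a region, so the rule itself excludes wide regions more easily. The part of this in the fall with width was not tested. A −log10 p-value at or above 1.3 was reached by 381 members, or 18.02%, and by 58.6% of the double-marked regions. The value 1.25439 was shared by 1062 members, or 50.2%, so that p-values did not rank most of them.

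In the replicate lists the same difference in height was seen. The peaks over members had a median fold enrichment of 1.48, 1.52 and 1.52 in replicates 1, 2 and 3, and those over double-marked regions 1.62, 1.60 and 1.60. Relative to the mean coverage of the genome, the median pileup over members was 4.79, 5.42 and 5.48, and over double-marked regions 5.89, 6.13 and 6.12. Pileups of different lists were scaled to different IgG depths, so these ratios are given. The lowest ratio of any peak also differed, at 4.03, 4.80 and 4.88 in replicates 1, 2 and 3, so the classes are best compared within a list.

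Members were also found in fewer replicates. Replicate 1 had a peak over 1797 of them (85.0%), replicate 2 over 1477 (69.9%) and replicate 3 over 1533 (72.5%). All 3 lists had a peak over 579 members, or 27.4%, compared with 53.3% of the double-marked and 47.3% of all distal regions. Replicates 1 and 3 alone supported 637 members, replicates 1 and 2 alone 581, and replicates 2 and 3 alone 317. Double-marked regions were supported by replicate 1 in 84.4%, by replicate 2 in 89.2% and by replicate 3 in 79.7%, so the first list, which had the most peaks, supported members most often and the second list double-marked regions. Since support in at least 2 lists was part of the rule, no test was made.

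Although no H3K4me1 peak overlapped them, most members lay within 10 kb of one. The nearest H3K4me1 peak of any list was at a median of 1311 bp, within 1 kb for 888 members (42.0%) and within 10 kb for 92.1%. Only 6 members were more than 100 kb from any H3K4me1 peak. The nearest peak of the pooled H3K4me1 list was at a median of 3518.5 bp. Members were farther from other acetylated regions than double-marked regions were, with a median of 3151 bp to the nearest other pooled H3K27ac peak against 1928 bp. The nearest double-marked region was at a median of 16432 bp, and 295 members (14.0%) had none within 100 kb. The distance to H3K4me1 was bounded by the rule and carries no test. The H3K4me1 lists held 100804 to 128684 peaks each, and how far other genomic positions lie from them was not measured.

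**Figure D2:**
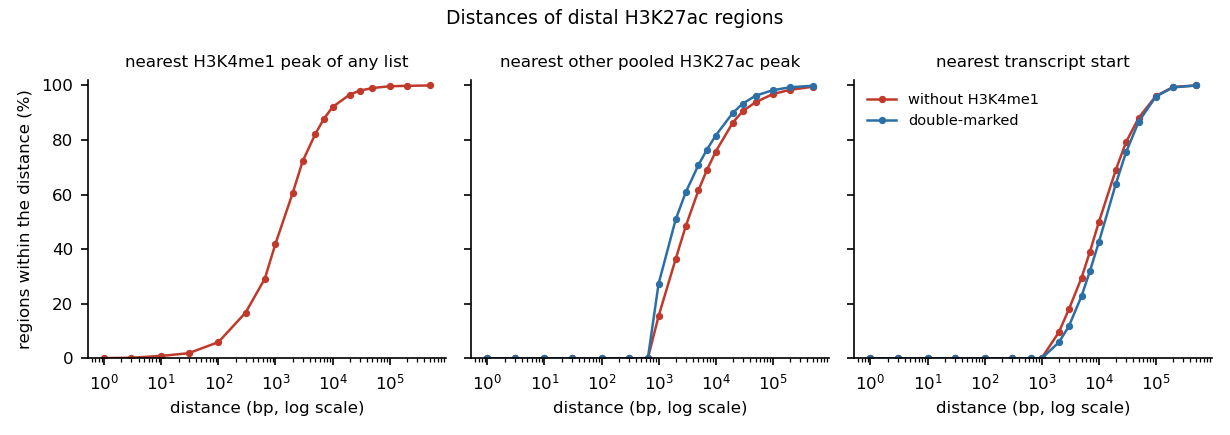
Share of regions (%, vertical axis) whose nearest H3K4me1 peak of any list (left), other pooled H3K27ac peak (middle) or transcript start (right) lies within the distance on the horizontal axis (bp, log scale), for regions without H3K4me1 (red) and double-marked regions (blue). The left curve crosses 42.0% at 1 kb, and in the middle panel the red curve lies below the blue one, with medians of 3151 and 1928 bp.

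At the edge of the rule, a member at chr13:111372647-111372872 directly adjoined an H3K4me1 peak, 1 in Phtf2 at chr5:20793119-20793669 lay 1 bp away and 1 at chr1:149820406-149821086 lay 2 bp away. Just outside, regions at chr14:26431191-26431376, chr10:108308663-108309079 and chr12:116254411-116254730 overlapped an H3K4me1 peak by 1, 2 and 2 bp. Their pileups were 3.31, 3.21 and 3.08, and those of the members just inside were 3.24, 3.09 and 3.42. Towards the start windows, members in Dnajb6 and Il16 directly adjoined a window and 1 in Vrk2 lay 2 bp away, while 2 regions just outside overlapped one by 5 and 7 bp.

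Sequence was not used by the rule, and of position it used the chromosome and the distance of 1 kb from a start, which both classes share. These features were compared in the replicate lists. In each H3K27ac list, the distal peaks over members (1626, 1397 and 1466 in replicates 1, 2 and 3) were set against those over double-marked regions (20238, 21914 and 20206), which gave 3 values against 3. An exact two-sided permutation test of 3 against 3 cannot go below p = 0.1, and 7 measures formed a family for Benjamini-Hochberg adjustment, so no measure could pass a threshold of 0.05. The lists share most regions, since a member had to be in at least 2 of them, and their SD is therefore a spread between calls of largely the same places.

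Regions without H3K4me1 were poorer in G and C. The mean GC content of their central 500 bp was 38.7%, 39.0% and 38.9% in replicates 1, 2 and 3, and that of double-marked regions was 41.9%, 41.9% and 41.7%. All 3 values of members were below all 3 of double-marked regions, with means of 38.9% ± 0.137 (SD, n = 3) and 41.8% ± 0.105 (exact permutation p = 0.1, adjusted p = 0.117). The difference of -2.96 percentage points was smaller within both ranges of call strength, at -1.89 below 1.3 on the −log10 p-value scale and -2.04 at or above it. Promoter regions with H3K27ac and without H3K4me1, of which there were 647 among 14312, had 51.3% GC. A CpG-dense centre, with at least 50% GC and an observed CpG count of at least 0.6 of that expected, was held by 38.3% of these promoter regions but by 9 of the 2114 members. In the lists this share was 0.544% ± 0.173 over members and 0.573% ± 0.0520 over double-marked regions (SD, n = 3), values that overlapped (exact permutation p = 0.8, adjusted p = 0.8). At or above 1.3 on the −log10 p-value scale the share was higher over members by 1.48 percentage points, and the lists of the classes did not overlap (exact permutation p = 0.1).

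Repeats took up more of the members. Repeat-masked bases made up 25.6%, 24.8% and 25.3% of the central 500 bp in replicates 1, 2 and 3, against 19.04%, 18.97% and 18.96% over double-marked regions. The means were 25.2% ± 0.397 and 18.99% ± 0.0464 (SD, n = 3, exact permutation p = 0.1, adjusted p = 0.117), and no value of one group reached the other. How uniquely reads map in such sequence was not tested.

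**Figure D3:**
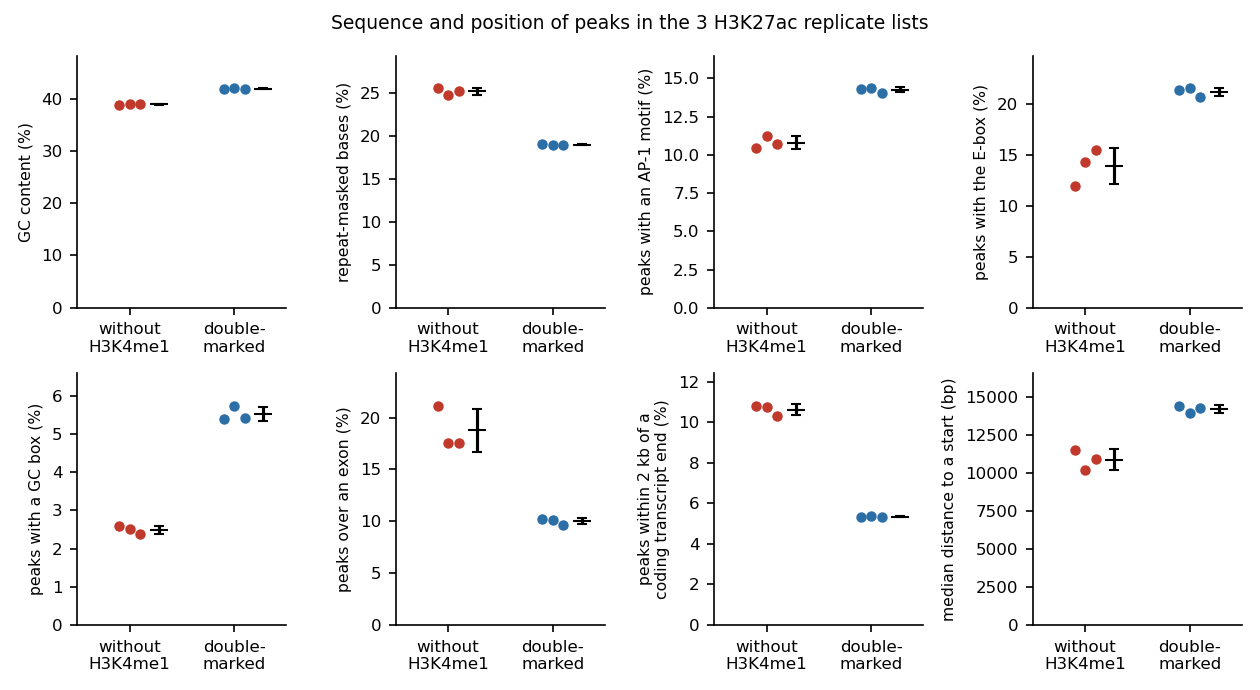
Values of 8 measures in the 3 H3K27ac replicate lists (points, replicates 1 to 3 from left to right) for peaks over regions without H3K4me1 (red) and over double-marked regions (blue), with the mean and SD in black (n = 3). The vertical axes start at 0 and give percentages or, in the last panel, a median distance in bp. In every panel the red and blue points are separate, for instance at 38.9% and 41.8% mean GC content. The CpG-dense share, whose values overlapped, the intergenic share and the tRNA share are not shown.

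Members lay somewhat nearer to transcript starts. The median distance from the centre of a peak to the nearest start was 11493.5, 10164 and 10939.5 bp over members and 14413, 13939.5 and 14246.5 bp over double-marked regions, a mean of 10866 ± 668 against 14200 ± 240 bp (SD, n = 3, exact permutation p = 0.1, adjusted p = 0.117). At the same time 36.7% ± 0.718 of the peaks over members overlapped no gene, compared with 32.7% ± 0.390 (SD, n = 3, exact permutation p = 0.1, adjusted p = 0.117). The size of this last difference, 3.97 percentage points, moved with the regions taken. Among regions of at most 700 bp in both classes, a limit set after seeing the data, it was 1.35 and the lists overlapped, whereas it was 10.01 at or above 1.3 on the −log10 p-value scale and 5.16 below.

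In the pooled list, 326 members (15.4%) overlapped an exon, 1030 (48.7%) lay within introns and 758 (35.9%) were intergenic, against 11.1%, 56.96% and 31.9% of double-marked regions. An untranslated region was overlapped by 130 members, or 6.15%, by 3.95% of double-marked regions and by 20.2% of all pooled H3K27ac regions. In the lists, 21.2%, 17.5% and 17.6% of peaks over members touched an exon, and 10.2%, 10.1% and 9.67% over double-marked regions. These means of 18.8% ± 2.07 and 10.0% ± 0.292 (SD, n = 3) did not overlap (exact permutation p = 0.1, adjusted p = 0.1 over 4 measures added after seeing the data). The difference of 8.77 percentage points was 10.1 for regions of at most 700 bp and 4.69 at or above 1.3 on the −log10 p-value scale. The ends of coding transcripts were near more often than for double-marked regions. Within 2 kb of one lay 10.6% ± 0.281 of the peaks over members and 5.35% ± 0.0368 over double-marked regions (SD, n = 3, exact permutation p = 0.1, adjusted p = 0.1). In the pooled list, 6.34%, 10.4% and 18.5% of members lay within 1, 2 and 5 kb of a coding transcript end, compared with 3.89%, 5.72% and 10.7% of double-marked regions. Among all pooled H3K27ac regions, promoters included, 10.1% lay within 2 kb of one, close to the share of members.

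Several motifs were less frequent over members and others more frequent. AP-1, the dimer of Fos and Jun proteins, binds TGACTCA, which was present on either strand in the central 500 bp of 10.5%, 11.2% and 10.7% of the peaks over members in replicates 1, 2 and 3. Over double-marked regions it was present in 14.3%, 14.3% and 14.1%. The means were 10.8% ± 0.400 and 14.2% ± 0.158 (SD, n = 3, exact permutation p = 0.1, adjusted p = 0.117), and the share in all pooled H3K27ac regions was 12.5%. Among regions at or above 1.3 on the −log10 p-value scale the difference was only -0.288 percentage points, and there the lists overlapped (exact permutation p = 0.7). In the pooled list, 218 of 2114 members had the site, and 44 of the 579 found in all 3 replicates did.

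The E-box CAGCTG, a site of muscle and mesenchymal basic helix-loop-helix factors, was present in 11.9%, 14.3% and 15.4% of peaks over members and in 21.3%, 21.5% and 20.7% over double-marked regions. This measure was added after seeing the data, with means of 13.9% ± 1.78 and 21.2% ± 0.415 (SD, n = 3, exact permutation p = 0.1, adjusted p = 0.1), and the share in all pooled H3K27ac regions was 21.9%. The GC box GGGCGG, bound by Sp and Klf factors at promoters, was present in 2.58%, 2.51% and 2.39% of peaks over members and in 5.40%, 5.75% and 5.43% over double-marked regions. The means were 2.49% ± 0.0985 and 5.53% ± 0.191 (SD, n = 3, exact permutation p = 0.1, adjusted p = 0.117), and 13.3% of all pooled H3K27ac regions had the GC box. The difference in the GC box, -3.03 percentage points, was -1.27 at or above 1.3 on the −log10 p-value scale, -1.51 below 1.3 and -2.02 for regions of at most 700 bp. The difference in the E-box, -7.28 percentage points, was -4.46 below 1.3 and -8.92 at or above it.

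Of the 19 motifs searched, 8 were rarer over members in every list than over double-marked regions in any list, 4 were more frequent and 7 overlapped. Besides those already given, the rarer ones were TEAD (GGAATG), ETS (CCGGAA), NRF1 (GCGCATG), the nuclear receptor element AGGTCA, which many receptors including those for estrogen share, and the steroid response element (GNACA and TGTNC with 3 bases between them). In the pooled list, ETS was present in 4.15% of the 579 members found in all 3 replicates, close to the 4.21% of double-marked regions. The others named here stayed lower in these 579. AGGTCA was present in 22.9% to 24.0% of peaks over members and 27.5% to 28.2% over double-marked regions, and the full steroid element in 0.477% to 0.716% and 1.19% to 1.29%. In all pooled H3K27ac regions these shares were 27.2% and 1.12%. For TEAD the classes lay close together, at 24.4% to 24.8% over members and 26.6% to 26.9% over double-marked regions, and in the pooled list both members and all H3K27ac regions had the letters in 25.4%.

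More frequent over members were MEF2, the CCAAT box, AGATAA as bound by the GATA family, and the TATA box with TATAAA. The MEF2 site of muscle transcription was present in 13.0% to 15.9% of peaks over members and in 11.6% to 11.7% over double-marked regions, and the TATA letters in 47.3% to 49.1% and 39.9% to 40.6%. In all pooled H3K27ac regions the shares were 9.89% and 34.4%. The CArG box of serum response factor, RUNX (TGTGGTT), YY1 (AAGATGG), the CTCF core, FOX (TGTTTAC), CRE (TGACGTC) and STAT (TTCCNGGAA) overlapped between the classes. A MEF2 match can contain the TATA letters and a STAT match the ETS letters. The GC content differed between the classes in the same lists, at 38.9% and 41.8%, and its part in the motif shares was not tested.

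**Figure D4:**
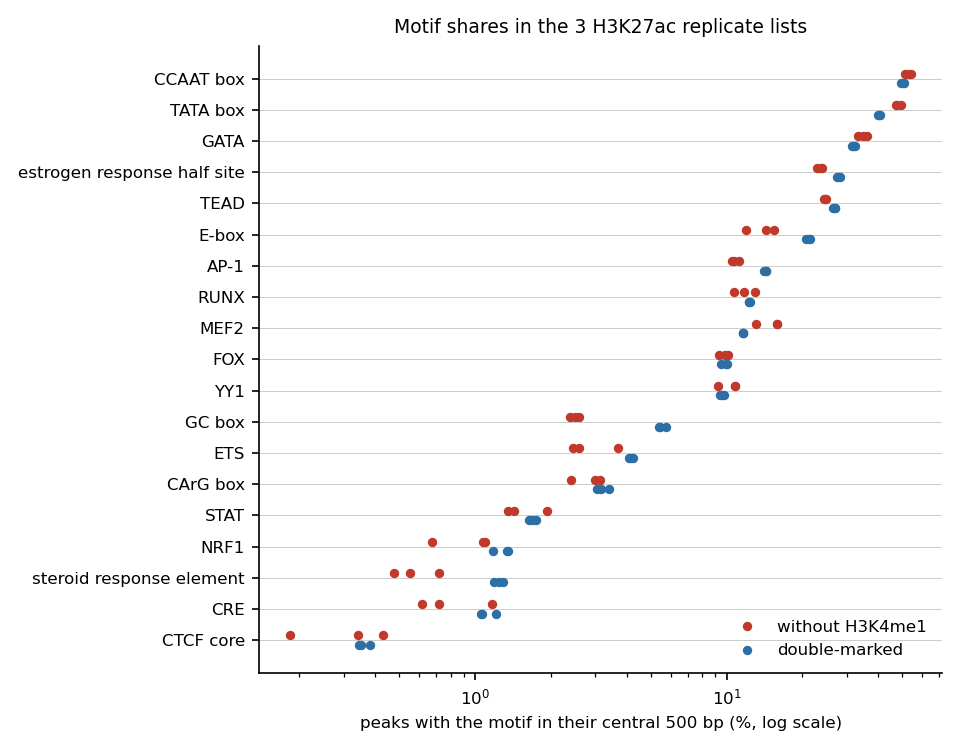
Share of peaks that hold each of 19 motifs in their central 500 bp (%, log scale), with 1 point per H3K27ac replicate list for peaks over regions without H3K4me1 (red) and over double-marked regions (blue). Red points lie to the left for 8 motifs, among them the E-box, the GC box and AP-1, to the right for 4 and among the blue ones for 7.

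Regions over tRNA genes were among the 12 named for their fold enrichment. The region of highest fold enrichment in all 3 replicates, chr3:96498869-96503154, was 4286 bp wide and held 4 tRNA genes, for lysine, histidine, glycine and glutamate. Its fold enrichment was 2.59 in the pooled list and 2.35, 2.40 and 2.24 in replicates 1, 2 and 3, and the nearest H3K4me1 peak lay 1035 bp away. At chr13:21974085-21975407, over a methionine tRNA gene, the pooled fold enrichment was 2.46 and the replicate values were 2.15, 2.16 and 2.19. At chr7:120834323-120836141, over a leucine tRNA gene with the nearest start, that of Eef2k, at 6690 bp, they were 2.24 pooled and 1.95, 2.34 and 1.91.

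In total 7 members overlapped a tRNA gene, and together they held 13 of these genes. The other 4 regions held tRNA genes for aspartate and glycine at chr1:171102049-171103030, for proline, valine and leucine at chr11:48855435-48857013, and for glycine at chr11:69117486-69118838 and chr1:171043702-171045551, with pooled fold enrichments of 2.08, 1.91, 1.82 and 1.75. Members thus overlapped tRNA genes in 0.331%, compared with 0.125% of double-marked and 0.156% of all distal regions. In the lists the shares were 0.341% ± 0.136 and 0.109% ± 0.00981 (SD, n = 3, exact permutation p = 0.1, adjusted p = 0.1). This measure was added after tRNA genes were seen among the strongest members. Its values over members rest on few regions, largely the same in each list, so the p-value gives no independent support. The difference of 0.232 percentage points was -0.0131 among regions of at most 700 bp and 0.0157 below 1.3 on the −log10 p-value scale, and it was 1.46 at or above 1.3 and 0.579 for regions in all 3 replicates.

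After this was seen, all tRNA genes were examined. RefSeq lists 403 on these chromosomes, of which 315 lay outside the start windows. H3K27ac peaks overlapped 94, 87 and 74 of the 315 in replicates 1, 2 and 3, that is 29.8%, 27.6% and 23.5%. H3K4me1 peaks overlapped 37, 35 and 16, that is 11.7%, 11.1% and 5.08%. Every H3K27ac list covered more tRNA genes than any H3K4me1 list, with means of 26.98% ± 3.22 and 9.31% ± 3.68 (SD, n = 3). These include the 13 genes inside members, whose difference the rule fixed, and come from the lists that the rule used. For the 302 other genes the means were 25.3% ± 3.51 and 9.71% ± 3.84 (SD, n = 3, exact permutation p = 0.1, the smallest this design allows), and again no H3K4me1 list reached an H3K27ac list. These values too come from the lists that the rule used, and tRNA genes were examined because members lay over them. The p-value is therefore no independent support. The H3K4me1 lists held 100804 to 128684 peaks and the H3K27ac lists 93684 to 152889. Of 78 genes among the 302 with H3K27ac in at least 2 replicates, 51 had no H3K4me1 peak over the gene in any replicate list and 12 had one in at least 2. The same share for other sites of this size under H3K27ac peaks was not determined. Within 1 kb of the gene the difference was smaller, with H3K27ac at 44.7%, 41.1% and 39.4% of the 302 genes and H3K4me1 at 34.8%, 32.8% and 27.5%. Copies of a tRNA gene can be nearly identical and several lie in clusters, so that reads inside the genes may not be assigned with certainty and neighbouring genes share peaks.

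**Figure D5:**
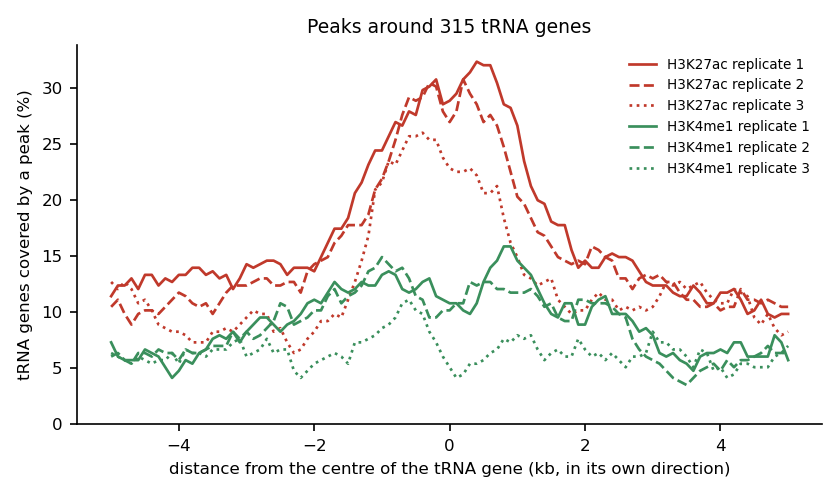
Share of 315 tRNA genes (%, vertical axis), the 13 inside members included, covered by a peak at each distance from the centre of the gene (kb, horizontal axis, in the direction of the gene), with 1 line per replicate list for H3K27ac (red) and H3K4me1 (green). At the centre the H3K27ac lines lie between 22.9% and 28.9% and the H3K4me1 lines between 5.08% and 10.8%, and at 5 kb downstream between 8.25% and 10.5% and between 5.71% and 6.98%.

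The other regions of high fold enrichment were of mixed position. At chr2:32136740-32138056, 13026 bp from the nearest start, that of Prrc2b, the pooled fold enrichment was 2.504, with 1.95, 2.68 and 2.63 in replicates 1, 2 and 3. A region of 308 bp in an intron of Firre, a long noncoding RNA of the X chromosome, at chrX:50600016-50600323, had 2.27, and the replicate values were 1.66, 1.59 and 1.85. In an intron of Pnlip, the pancreatic lipase gene, chr19:58665624-58666029 had 2.25 and replicate values of 1.90, 1.79 and 1.84. An exon of Synpo2l, which encodes an actin-associated protein of striated muscle, was covered at chr14:20660709-20662299, with 2.23 pooled, 2.16, 2.01 and 2.11 in the replicates, and 66.2% GC. Stim2, an endoplasmic calcium sensor, held an intronic region of 166 bp at chr5:54113533-54113698 with 2.201, and 1.88, 1.53 and 1.52 in the replicates.

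The remaining 4 of the 12 were a region in Fpr3 at chr17:17909884-17910616 and intergenic ones at chr7:93941875-93942934, chr7:58629271-58630007 and chr1:145953633-145959530, with 2.14, 2.19, 2.14 and 2.12. The last was 5898 bp wide, 60408 bp from the nearest H3K4me1 peak and 460906 bp from the nearest start. The widest member, chr10:120621844-120628095, measured 6252 bp, had a fold enrichment of 2.05 and lay 4362 bp from H3K4me1. The other 2 of the 5 widest, at chr8:128665391-128669552 and chr2:117625018-117628783, measured 4162 and 3766 bp. All 5 were present in all 3 replicates and lay outside GENCODE gene bodies, and the region of 4286 bp on chromosome 3 held the 4 RefSeq tRNA genes named above.

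Members were spread over all 20 chromosomes. Chromosome 2 had the most, with 185, and X the fewest, with 39. As a share of the distal regions of a chromosome they ranged from 5.07% on chromosome 18 to 8.996% on chromosome 13, where 155 of 1723 were members. They fell into 1072 windows of 1 Mb, of which 570 held 1 member and 61 held at least 5. The fullest window, chr15:62000001-63000000, held 21 members among 97 distal regions, 10 of them in all 3 replicates, and 65 double-marked regions. The named gene there is Pvt1, a long noncoding RNA beside Myc. Next came chr13:5000001-6000000 around Klf6, a zinc finger factor, with 15 of 74, and chr4:64000001-65000000 around Tnc, which encodes the matrix protein tenascin C, with 13 of 60. Pileups of the members in these 3 windows lay between 3.07 and 4.04.

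Protein-coding genes seldom held more than 1 member. Of 21728 such genes, 1259 (5.79%) had a member in the body or as the region whose nearest start was theirs, and 5501 (25.3%) had a double-marked region. A member lay in the body of 955 genes, which held 1 in 746 cases and at least 3 in 54, and 303 of the 955 had no double-marked region in the body. Usp34, which encodes a ubiquitin protease, held the most, with 8 members and 6 double-marked regions. Rev3l, the catalytic subunit of DNA polymerase zeta, and Spidr, a scaffold of DNA repair, held 7 each, with 9 and 8 double-marked regions.

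Cubn, an endocytic receptor, and Sugct, a mitochondrial CoA transferase, held 6 each, with 11 and 13 double-marked regions. Among the genes with 5 members, Dync1i1, a chain of cytoplasmic dynein, had 0 double-marked regions and Nup98, a protein of the nuclear pore, had 3, whereas Frmd4b, Vps13b and the cAMP phosphodiesterase gene Pde4d had 10, 43 and 58. Atp8b4 and Uba6 also held 5 and had lower fold enrichments. The genes named here are of very different length, from 63517 bp for Uba6 to 1503514 bp for Pde4d.

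Lists of genes for the tissue were then read against the 5.79% of all coding genes. Of 16 genes of smooth muscle, 1 had a member, Synpo2, an actin-binding protein of the Z-disc and dense bodies, with a region of pileup 3.11 at 14498 bp from its start, while 8 had a double-marked region. Of 16 stromal genes, 3 had a member and 12 a double-marked region. Col3a1, which encodes a fibrillar collagen, was the nearest start of 2 members, with pileups of 3.67 and 3.61. Dcn, the proteoglycan decorin, and Esr1, the estrogen receptor, each held 1, with pileups of 3.28 and 3.40.

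For the prostaglandin pathway, through which the oviduct is known to control its contractions, 1 of 23 genes had members and 8 had double-marked regions. The gene was Pla2g4a, which encodes the phospholipase that frees arachidonic acid for prostaglandin synthesis. Members lay in its body at chr1:149927001-149927171 and chr1:149928486-149929145, and 1 more at chr1:149982738-149983027 lay 21448 bp from its start. Their pileups were 3.24, 3.81 and 3.15 and each was supported by 2 replicates. No other gene of the list held a member in its body or had the nearest start to one. A member nearest to the start of the noncoding gene Ptgs2os2 was not counted for the cyclooxygenase gene Ptgs2.

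Some signalling genes had a member. In the TGF-beta and BMP list, 3 of 20 genes (15%) had members, against 5.79% of all coding genes, and 13 had double-marked regions. Tgfbr1, a receptor kinase, had 1 at 1004 bp from its start, Smad4, the common signal transducer, had 1, and Bmpr2, a receptor for BMPs, had 2. Among 12 genes of YAP, TEAD and SRF cofactors, 2 (16.7%) had members and 7 had double-marked regions. Yap1, the coactivator of TEAD factors, held a region with a pileup of 4.92, and Lats2, the kinase that restrains it, one with 5.45. Lpp and Itgb1 had a member in the list of 16 cytoskeletal and adhesion genes, of which 12 had a double-marked region, and Fosl1 in the list of 16 AP-1 and early response genes, of which 7 had one.

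For other cell types, Krt18 and Ehf had a member among 16 epithelial genes and Emcn among 12 endothelial genes. The count was 0 among 16 blood cell genes, 14 circadian clock genes and 16 liver and neuron genes, of which 2, 10 and 4 had a double-marked region. In lists of this size, 5.79% corresponds to about 1 gene. The counts of 0 to 3 are too small to tell whether any list differs, which was not tested. Every one of these 20 members had a pooled fold enrichment between 1.68 and 1.91, close to the median of 1.75 for all members.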

How the data were processed

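The values analysed were 8 MACS 2.2.7.1 broad peak lists, 1 for each of 3 H3K27ac and 3 H3K4me1 replicates and 1 pooled list per mark. The labels name cutadapt, Bowtie2, MACS2 and the build GRCm38.p5. Per the file headers, the authors called peaks on paired-end fragments with p-value cutoffs of 0.05 and, for weak regions, 0.1, and scaled the larger library to the IgG control. The deposited pileup is a coverage signal, averaged over a region. The deposited fold enrichment is a ratio to local background. Significance was deposited as −log10 of p and of q, and according to the headers q was not to be computed. The paper read for style reports other cells, so how the reads were filtered is not given in the sources used here.

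Overlap meant at least 1 bp. Gene models were GENCODE mouse release 21, and sequence, soft-masked repeats and tRNA genes were from RefSeq on GRCm38. GC content, repeats and motifs were taken from the central 500 bp of a peak. Peaks over both classes (68, 44 and 36 in the lists) were left out. Each list gave 1 value per class, compared by an exact two-sided permutation test over 20 assignments, with Python 3.11.15, numpy 2.4.6 and pandas 2.3.3. Both classes came from the same libraries, so the values pair by library, and sign flips within libraries served as the block. The scripts were tested on simulated data.

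Named regions were the 12 members of highest pooled fold enrichment in all 3 replicates, the 5 widest, and the 3 nearest each limit of the rule, and named genes the 10 coding genes with most members and list genes with a member. The tRNA regions, the 1 Mb windows and 4 measures were named after their values were seen. The members and lists were chosen with earlier results of these data known.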

Additional observations from a re-analysis of the deposited data

Results flagged for a closer look

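Outside chromosomes 1 to 19 and X, on sequences that the comparisons did not use, the pooled H3K27ac list held 27 peaks, of which 23 were found in at least 2 replicates. There were 10 of these 23 with no H3K4me1 peak in any list, among them 4 on the mitochondrial genome, which carries no histones. They stand for signal outside the regions analysed, and no control list was at hand to set them against.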

How the results depend on the processing

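The number of members moved most with the calls. It was 1391 when each counted replicate had to cover 50% of the region, 579 with all 3 H3K27ac replicates, 4412 with the pooled H3K4me1 list only, 1226 with no H3K4me1 peak within 1 kb and 381 at 1.3 or more on the −log10 p-value scale. Leaving out an H3K27ac replicate, so that both others were needed, gave 896 without replicate 1, 1216 without replicate 2 and 1160 without replicate 3, and leaving out an H3K4me1 replicate 2452 to 2985. Start windows of 250 bp or 3 kb and coding starts only gave 2294, 1733 and 2322. Of the measures, the CpG-dense share had no stable direction. Its difference of -0.0296 percentage points became 0.0281 without replicate 1, 0.0399 with all 3 replicates, 0.0898 with no H3K4me1 within 1 kb and 1.48 at 1.3 or more on the −log10 p-value scale, where the lists separated, and without 1 replicate it ranged from -0.0965 to 0.0281. The tRNA share turned to -0.0131 percentage points for regions of at most 700 bp. For the other comparisons, 110 of 111 values under alternative settings kept their direction, that one being the exception. They include the values under the replicate block, which repeat the main differences and could not change direction. With the replicate block, the smallest p of 3 pairs is 0.25, which all measures reached except the CpG-dense share (0.75), and no call changed. For the tRNA genes the block paired libraries of the 2 marks by their number alone. Without 1 replicate, 2 values stood against 2. GC content then differed by -3.04 to -2.87, repeat-masked bases by 6.08 to 6.44, the AP-1 share by -3.62 to -3.23, the GC box share by -3.14 to -2.93 and the intergenic share by 3.53 to 4.37 percentage points, the distance to a start by -3541 to -3113 bp and the tRNA genes covered by 17.3 to 18.3 percentage points. The limits of 700 bp and of −log10 p below 1.3 were chosen after seeing the data. In the central 200 bp, a shorter stretch to search, the AP-1, GC box and E-box shares differed by -1.88, -1.18 and -3.54 percentage points.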
